A study of Mus musculus with 12 samples.

Results

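The regulators of G protein signaling (RGS) described here were 9 mouse genes: Rgs1, Rgs2, Rgs3, Rgs13, Rgs16 and Rgs18 of the R4 subfamily, Rgs10 and Rgs14 of the R12 subfamily, and Rgs19 of the RZ subfamily. They were found as the noncontrol array probes whose RefSeq accession maps to these symbols, which gave 14 of the array's 55681 noncontrol probes and 9 of its 37163 gene names. All 14 probes were kept by the filter on dim signals, which left 22751 gene names in all. The 9 genes were chosen by name with the differences between these 4 groups already known, and which of those differences were used is not recorded. Each difference between groups below is therefore a description, given with its standard error (SE) but without a p-value, and a call is only the place of the gene in the fit across all genes.

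A G protein-coupled receptor switches on a G protein by loading its alpha subunit with GTP. RGS proteins bind the active alpha subunit and speed the hydrolysis of that GTP, which ends signaling by the alpha subunit and by the beta-gamma pair. In B cells this shortens the response to chemokines and to lipid attractants, and so tunes migration into follicles and out of lymphoid tissue.

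The cells were splenic follicular B cells from male C57BL/6J mice, either wild-type (WT) or Bach2-/-, which lack the transcriptional repressor Bach2. The groups were WT at 0 h, WT after 24 h with 10 µg/mL anti-IgM Fab', a ligand of the B cell receptor, and Bach2-/- at 0 h and at 24 h with the same agent, with 3 one-colour arrays in each. The series asked which expression changes accompany the poor proliferation of Bach2-/- cells after B cell receptor stimulation. None of these groups was cultured for 24 h without anti-IgM, so time in culture and the stimulus cannot be told apart. The labels' text names no cell or promoter that limits the Bach2 deletion and does not say that arrays 1 to 3 of a group came from separate animals, so an SE measures only the spread between these arrays, which may be technical.

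Signals are log2 values relative to the 75th percentile of the array, so 0 is that percentile and a step of 1 is a doubling. They are compared between arrays for 1 probe and never between probes. Differences carry the SE of a limma fit to all 12 arrays, and a gene passed where its p, adjusted after Benjamini and Hochberg across 22751 genes, was under 0.05.

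The promoters of Rgs16 and Rgs10, the members whose 4 groups did not overlap, are shown with that of Rgs2, since it holds a motif the others lack. Each is the RefSeq window from 250 bases before to 50 bases after the annotated start on build GRCm38.p6, printed 5′ to 3′ on the gene's strand. Rgs16 lies at chr1:153740103-153740402 on the plus strand, Rgs10 at chr7:128418123-128418422 on the minus strand and Rgs2 at chr1:144004100-144004399 on the minus strand. Capitals mark TGACG, the core of the cAMP response element, read on either strand.
Rgs16: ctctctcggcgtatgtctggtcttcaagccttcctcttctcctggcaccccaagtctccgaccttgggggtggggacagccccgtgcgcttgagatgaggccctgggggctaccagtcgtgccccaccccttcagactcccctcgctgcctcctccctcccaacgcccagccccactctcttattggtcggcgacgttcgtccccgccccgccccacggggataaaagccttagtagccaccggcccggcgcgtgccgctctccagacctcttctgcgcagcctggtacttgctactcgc
Rgs10: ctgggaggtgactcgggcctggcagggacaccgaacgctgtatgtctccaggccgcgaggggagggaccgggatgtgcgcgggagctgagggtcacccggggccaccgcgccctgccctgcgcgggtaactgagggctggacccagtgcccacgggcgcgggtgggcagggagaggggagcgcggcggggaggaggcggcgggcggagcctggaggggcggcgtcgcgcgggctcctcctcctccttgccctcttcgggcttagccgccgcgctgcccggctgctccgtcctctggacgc
Rgs2: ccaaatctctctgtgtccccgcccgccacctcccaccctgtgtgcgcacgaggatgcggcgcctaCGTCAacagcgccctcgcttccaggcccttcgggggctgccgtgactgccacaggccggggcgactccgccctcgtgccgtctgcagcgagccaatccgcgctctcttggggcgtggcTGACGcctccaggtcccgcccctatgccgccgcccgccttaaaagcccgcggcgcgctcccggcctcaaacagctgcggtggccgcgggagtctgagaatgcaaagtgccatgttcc

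The table of promoters held 9 windows for 6 of the 9 genes (Rgs2, Rgs3, Rgs10, Rgs13, Rgs16 and Rgs19). The windows of Rgs16 and Rgs10 were 66% and 76% G and C, and that of Rgs2 was 70%, whereas the Rgs13 window held 36.7%. Each window was searched on both strands for the AP-1 core TGANTCA, and for the same core preceded by TGC, the Maf recognition element that Bach2 binds together with small Maf proteins. Neither occurred in the 9 windows, against 7.81% and 0.423% of the 32851 promoters in the table. The full cAMP response element TGACGTCA was also absent from the 9 windows (1.79% of all promoters). Its core TGACG, which overlaps the full element, occurred in the Rgs2 window alone, with 1 match at -185 on the minus strand and 1 at -67 on the plus strand, counted from the start (20.8% of all promoters). TATAAA, the TATA box, occurred in both Rgs3 windows, at -100 and -177 (13.6% of all promoters). A match is only a description of the letters, and its absence concerns these windows alone.

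Of the 9 genes 5 lie on chromosome 1, where Rgs2, Rgs13 and Rgs1 follow each other with no other coding gene between them. Rgs18 comes next after Rgs21, which is not analysed here. Rgs16 lies beside Rgs8 elsewhere on the same chromosome.

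Across arrays the processed signal had a 75th percentile between 87.4 and 307, and 50.9% to 66.7% of noncontrol spots were well above background. Precision is limited by the number of arrays. Slide 2 held array 1 of each group, and slide 1 held arrays 2 and 3. Bach2 fell short of WT on all 6 Bach2-/- arrays by its brightest probe, by 2.56 ± 0.30 at 0 h and 3.75 ± 0.30 at 24 h on the log2 scale. Its other probe was detected on each of the 6 WT arrays and on 0 Bach2-/- arrays. The sources used here do not place these probes relative to the deleted part. Bach2-/- 0 h array 1 stood apart: Ddx3y, a Y-linked gene, was at the floor of -6.64 there against 0.38 to 1.73 on the other 11 arrays. All 12 samples are labelled male. Xist, transcribed from the inactive X chromosome of females, had a log2 level of -2.10 to -0.69 on array 1 of all 4 groups by one of its 2 probes. It read -2.07 on Bach2-/- 0 h array 3, and -6.26 to -5.30 on the other 7 arrays. Both probes of the Y-linked gene Uty were lowest in each group on array 1. On slide 1 alone, without the 4 array 1s, the members called were 0 and 2 between genotypes at 0 h and 24 h, 6 in WT cells, 7 in Bach2-/- cells and 1 in the response difference. The share of all genes called in that fit is not given here, so these counts have no background beside them. On slide 1 alone Rgs10 also passed at 24 h, Rgs2 no longer passed in Bach2-/- cells, and Rgs16 still passed at 24 h (5.56) and in the response difference (4.59). Bach2-/- 24 h array 2 was the dimmest array. Leaving out both changed 1 member's call, that of Rgs19 in Bach2-/- cells. Of 8 tested follicular B cell markers, 0 differed between genotypes at 0 h by the test and 1 was lower in Bach2-/- cells at 24 h, with a list median of -0.67 there against -0.05 for all genes. After stimulation 6 of the 8 fell in WT cells and all 8 in Bach2-/- cells, where 9.06% and 7.74% of all genes fell.

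Rgs16 showed the widest separation between genotypes. It encodes an R4 protein that acts on Gi and Gq alpha subunits and is known to restrain lymphocyte migration. Before stimulation arrays 1, 2 and 3 read -3.82, -3.60 and -4.22 for WT cells, and -2.66, -2.88 and -3.00 for Bach2-/- cells. After 24 h they read 0.15, -0.09 and 0.11 for WT, and 5.76, 6.05 and 5.10 for Bach2-/-. The 4 groups did not overlap, in the order WT 0 h, Bach2-/- 0 h, WT 24 h and Bach2-/- 24 h. The rise over 24 h was 3.94 ± 0.28 in WT cells and 8.48 ± 0.28 in Bach2-/- cells, so the difference between the responses was 4.55 ± 0.40. At 24 h Bach2-/- cells were higher by 5.58 ± 0.28, or 47.8-fold. Slide 1 and slide 2, taken alone, gave 5.56 and 5.61 for that difference. These 4 differences passed in the fit and under every alternative that was run, though the size of the rises depended on the processing. Over the alternatives the rise ran from 1.96 to 4.08 in WT cells and from 6.80 to 8.75 in Bach2-/- cells. The 24 h difference ran from 5.12 to 5.85, and the response difference from 4.34 to 4.84. At 0 h the difference was 1.03 ± 0.28, which passed only with the replicate number or the slide as a block. As in any bulk sample, a change in the share of cells that express a gene and a change in RNA per cell cannot be told apart.

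Rgs1 encodes an R4 protein of lymphocytes that dampens their response to chemokines. Unstimulated WT cells gave log2 signals of -3.79, -6.11 and -2.49, of which 2 were well above background, and unstimulated Bach2-/- cells gave -2.50, -3.59 and -0.31. Stimulated WT cells gave 0.54, 0.24 and -0.13, and stimulated Bach2-/- cells gave 4.26, 4.07 and 3.26. The 0 h groups overlapped and were widely spread, with an SD of 1.83 in WT and 1.67 in Bach2-/- cells (n = 3 each), while the 24 h groups were tight and apart. Rgs1 rose by 4.35 ± 0.90 in WT cells and by 6.00 ± 0.90 in Bach2-/- cells. At 24 h it was 3.65 ± 0.90 higher in Bach2-/- than in WT cells, close to equal on slide 1 (3.61) and slide 2 (3.71). This difference missed the threshold in the fit, where all groups share 1 estimate of the spread, and passed with the replicate block (SE 0.78), with the slide block, with normexp background correction and with only the 24 h groups fitted (SE 0.38).

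Rgs2 encodes an R4 protein with a preference for Gq. The brighter of its probes read 5.33, 4.55 and 5.15 (WT) and 4.47, 3.96 and 4.87 (Bach2-/-) before stimulation. Afterwards the same probe read 6.38, 5.51 and 5.58 (WT) and 6.62, 5.42 and 5.70 (Bach2-/-). By this probe each genotype's 24 h arrays lay above its own 0 h arrays, and the genotypes overlapped at both times. The change was 0.81 ± 0.39 in WT cells, which passed only with a block, and Rgs2 rose by 1.48 ± 0.39 in Bach2-/- cells. The second call was lost when Bach2-/- 0 h array 1 or 2, or Bach2-/- 24 h array 1 or 3, was left out, with values of 1.12 to 1.58, and with normexp background correction (1.32), on slide 1 alone (1.14) and with only the compared groups fitted. The dim probe, above background on 8 of 12 arrays, gave -0.27 ± 0.38 in WT cells and 0.94 ± 0.38 in Bach2-/- cells, so the probes differed in sign for WT cells. At 0 h its genotypes did not overlap (-1.15 ± 0.38, not passed), with only 1 Bach2-/- array above background.

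Rgs3 encodes an R4 protein made in several isoforms, some of which bind beta-gamma subunits. The brightest of 3 probes went from 2.20, 1.60 and 1.56 to 4.12, 3.53 and 3.50 in WT cells. For Bach2-/- cells the readings went from 2.66, 1.86 and 2.03 to 4.61, 4.76 and 3.97. By this probe stimulated and unstimulated arrays were separate in both genotypes, and the genotypes overlapped at each time. Rgs3 rose by 1.93 ± 0.32 in WT and by 2.26 ± 0.32 in Bach2-/- cells. Of the other probes, the one for a different RefSeq transcript rose by 1.44 ± 0.25 and 2.40 ± 0.25. The third, which shares its transcript with the brightest, gave 0.42 ± 0.37 and 0.93 ± 0.37, and neither of these passed. By both of these other probes the Bach2-/- arrays lay above the WT arrays at 24 h without overlap. The differences were 0.94 ± 0.25 and 0.71 ± 0.37 and did not pass. For the third probe the nearest arrays read 1.63 (WT) and 1.70 (Bach2-/-).

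Rgs13 encodes an R4 protein known from germinal centre B cells and mast cells. Log2 signals of WT cells were 1.19, 0.48 and 0.88 without stimulation, then 1.68, -0.53 and 0.07 with it. Those of Bach2-/- cells were 0.56, -0.67 and -0.55, then -0.61, -1.27 and -0.58. Bach2-/- arrays lay below WT arrays at 24 h without overlap, and every step in the order of the 4 groups overlapped with its neighbour. The change over 24 h was -0.44 ± 0.52 in WT cells, with -0.91 on slide 1 and 0.49 on slide 2, and -0.60 ± 0.52 in Bach2-/- cells. The genotype differences were -1.07 ± 0.52 at 0 h and -1.23 ± 0.52 at 24 h, and the latter passed only with a block. The 24 h difference was -0.70 on slide 1 and -2.29 on slide 2. The nearest arrays of the genotypes at 24 h read -0.53 (WT) and -0.58 (Bach2-/-).

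Rgs18 encodes an R4 protein best known from platelets and megakaryocytes. Its probe read 0.92, 0.34 and 0.30 on the unstimulated WT arrays, against -1.51, -3.54 and -2.80 on the stimulated ones. The Bach2-/- arrays read 0.62, -0.59 and -0.30 unstimulated, against -3.33, -5.45 and -4.24 stimulated, where only 1 array was well above background. All stimulated arrays were below all unstimulated arrays. Rgs18 fell by 3.14 ± 0.59 in WT cells and by 4.25 ± 0.59 in Bach2-/- cells. Both falls passed under every alternative, but their size depended on the processing. The change ran from -3.69 to -1.71 in WT cells and from -4.75 to -1.60 in Bach2-/- cells. The genotypes overlapped at both times, and the 24 h difference of -1.72 ± 0.59 passed only with a block (SE 0.27 with the replicate block). Over the alternatives that difference ran from -2.23 to -0.32, and the response difference from -1.62 to 0.11. The summed signal of platelet and megakaryocyte markers, over 5 tested genes of 9 and in multiples of the 75th percentile, was 0.832 to 1.07 in WT cells at 0 h and 0.506 to 0.931 at 24 h. For Bach2-/- cells it was 0.694 to 1.23 at 0 h and 0.565 to 1.17 at 24 h. Of these 5 markers 1 fell in each genotype, and Gp1ba was above background on no array. Their part in the fall of Rgs18 was not tested.

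Rgs10 encodes a small R12 protein that acts on Gi alpha subunits in leukocytes. Resting WT arrays read 2.01, 1.85 and 1.84, and resting Bach2-/- arrays 3.78, 2.98 and 3.26. With anti-IgM the readings were 5.58, 4.52 and 5.05 for WT cells, and 5.87, 6.08 and 5.90 for Bach2-/- cells. Like Rgs16, it had 4 groups without overlap in the order WT 0 h, Bach2-/- 0 h, WT 24 h and Bach2-/- 24 h. Rgs10 rose by 3.15 ± 0.30 in WT cells and by 2.61 ± 0.30 in Bach2-/- cells. Bach2-/- cells were higher by 1.44 ± 0.30 at 0 h and by 0.90 ± 0.30 at 24 h. Neither difference passed in the fit, and both passed with the replicate block (SE 0.22 each), with the slide block and with quantile normalization. The 0 h difference also passed with the percentile taken over spots, an alternative chosen after seeing the data, and the 24 h difference on slide 1 alone. The 24 h difference was 1.20 on slide 1 and 0.28 on slide 2.

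Rgs14 encodes an R12 protein that also carries a GoLoco motif, which holds Gi alpha subunits in their inactive form. WT arrays went from log2 signals of 4.12, 3.79 and 3.63 to 1.89, 1.49 and 1.47. Bach2-/- arrays went from 4.14, 3.36 and 3.45 to 1.52, 0.83 and 0.96. Stimulated arrays lay well below unstimulated ones, and the genotypes overlapped at both times. Rgs14 fell by 2.23 ± 0.29 in WT cells and by 2.54 ± 0.29 in Bach2-/- cells.

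Rgs19 encodes the RZ protein GAIP, which acts on Gi and Gz alpha subunits. By the brightest probe, resting cells read 5.31, 5.13 and 5.15 (WT) and 5.59, 5.01 and 5.25 (Bach2-/-). Stimulated cells read 5.34, 4.58 and 4.75 (WT) and 4.50, 4.04 and 4.33 (Bach2-/-). Only the stimulated Bach2-/- arrays stood below all others. Rgs19 fell by 1.00 ± 0.26 in Bach2-/- cells, and its change in WT cells was -0.31 ± 0.26. The call in Bach2-/- cells was lost without Bach2-/- 0 h array 1 or 3 or Bach2-/- 24 h array 2 or 3, with values of -1.02 to -0.84, and without both arrays that stood apart (-0.72). It was also lost with no filter on dim probes, with the mean of the probes (-0.93) and with only the compared groups fitted. The other probes gave -0.85 ± 0.40 and -0.94 ± 0.40 in Bach2-/- cells and did not pass. By these probes the stimulated Bach2-/- and WT arrays overlapped. Over all 30751 probes fitted one by one, 0.624% passed between genotypes at 0 h and 2.73% at 24 h, 20.6% over the WT response, 13.3% over the Bach2-/- response and 0.306% for the response difference.

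**Figure D1:**
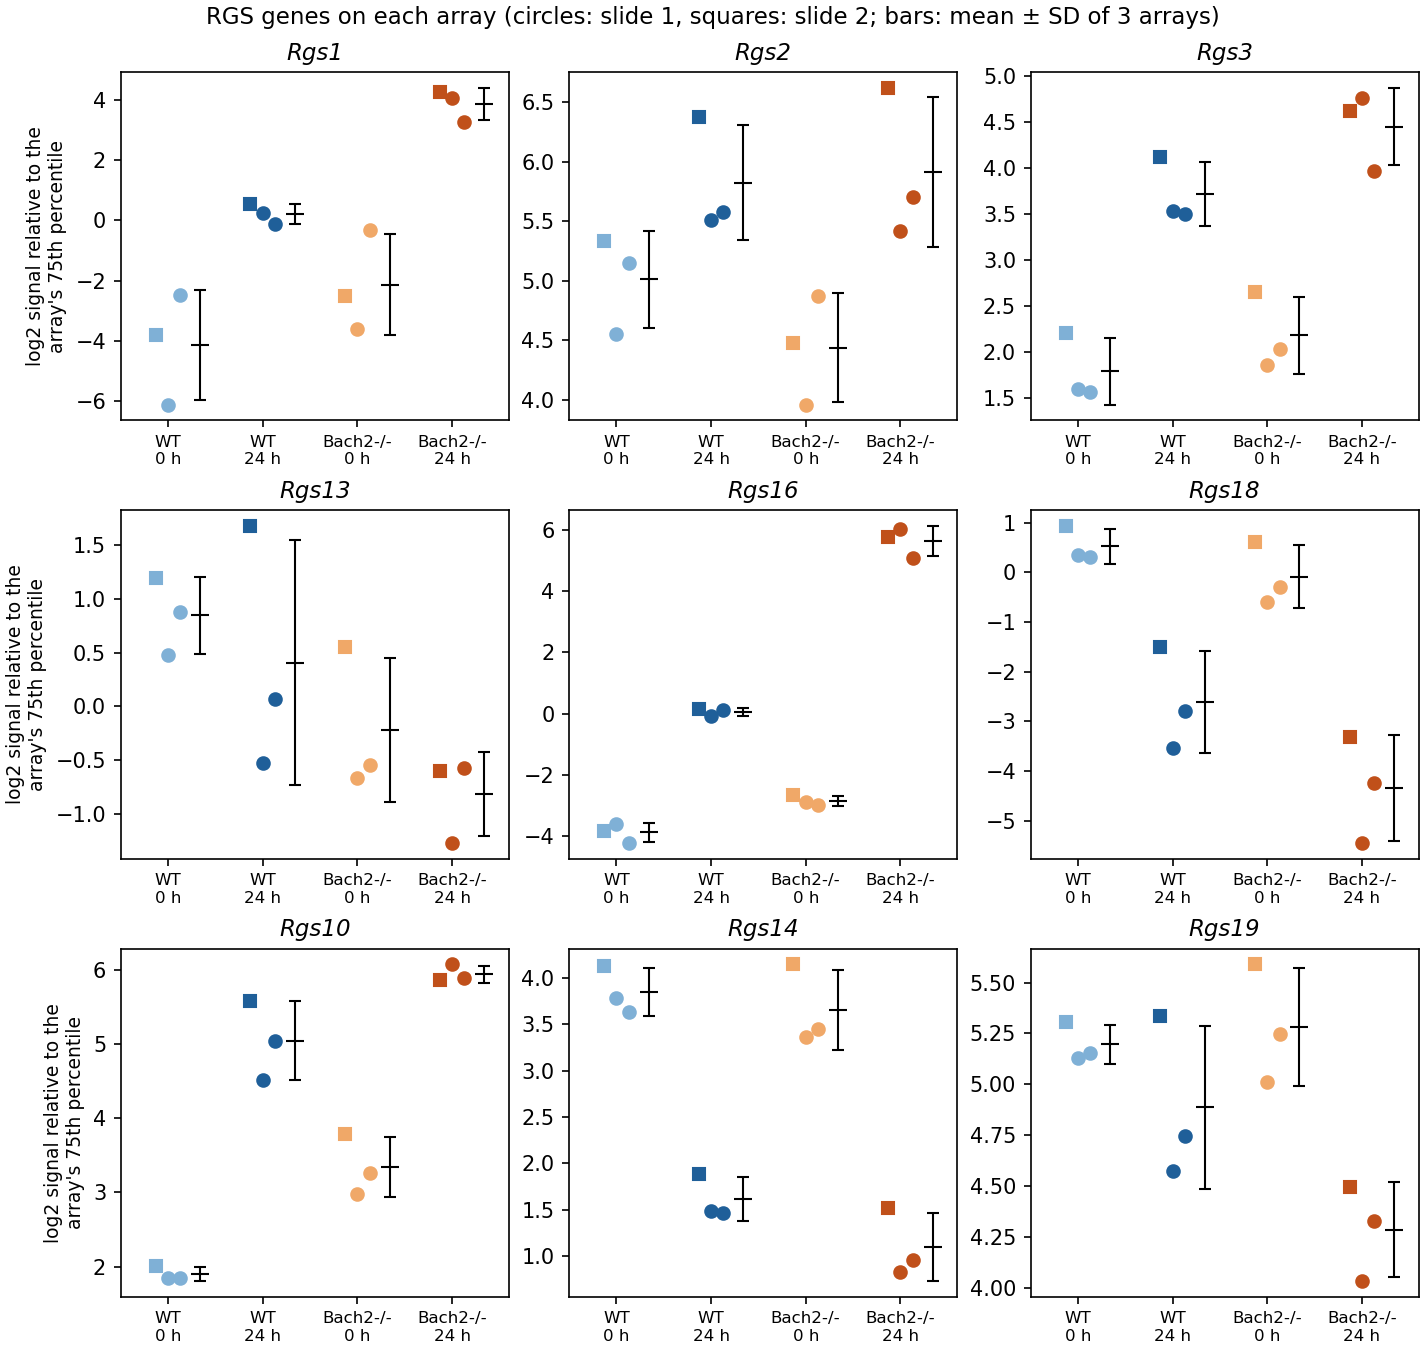
Log2 signal relative to the array's 75th percentile for the 9 RGS genes, by the brightest probe, in the 4 groups (circles, slide 1; squares, slide 2; black bars, mean ± SD of 3 arrays). Rgs16 and Rgs10 separate all 4 groups, and Rgs18 and Rgs14 are lower on every 24 h array than on every 0 h array.

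**Figure D2:**
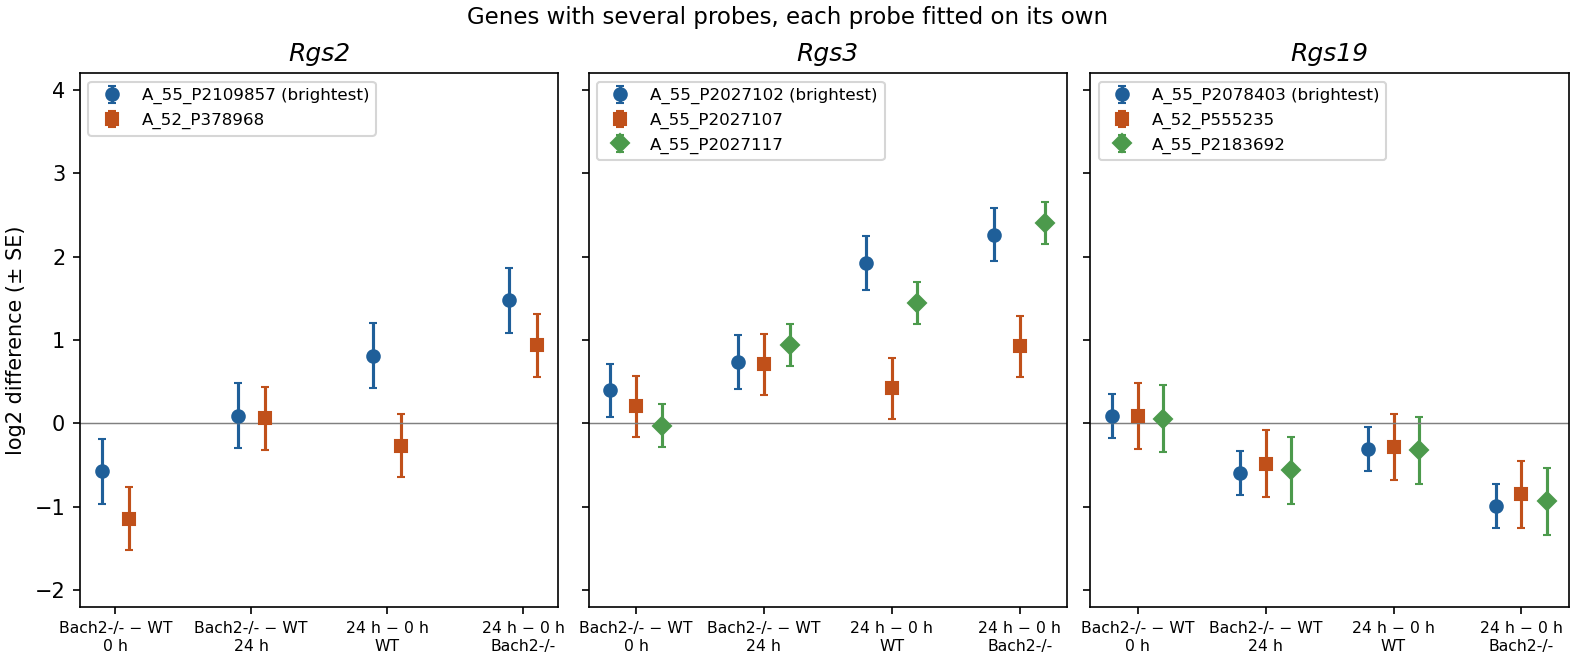
Log2 difference ± SE for each probe of Rgs2, Rgs3 and Rgs19, fitted on its own, in the 4 comparisons of 2 groups (3 arrays each). The probes of Rgs19 lie together, while Rgs2 in WT cells has 0.81 by the brighter and -0.27 by the dim probe.

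Before stimulation 0 of the 9 genes passed between genotypes, where 0.629% of all genes did (0.536% higher and 0.0923% lower in Bach2-/- cells). At an unadjusted p under 0.05 there were 3, Rgs1, Rgs16 and Rgs10, where 6.11% of all genes had such a p. The genes were chosen with these differences known, so this looser count is a description and no support for a difference. With the replicate block 2 passed, both higher in Bach2-/- cells (Rgs16 and Rgs10), against 3.73% of all genes (2.8% higher and 0.927% lower). The arrays of Rgs16 and Rgs10 did not overlap, as was so for 12.1% of all genes. The median difference of the 9 genes was 0.09, and that of all genes 0.03.

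After 24 h 1 of the 9 genes passed, Rgs16, which was higher in Bach2-/- cells, against 3% of all genes (2.16% higher and 0.835% lower). With the replicate block 8 passed, with Rgs1, Rgs3, Rgs16 and Rgs10 higher and Rgs13, Rgs18, Rgs14 and Rgs19 lower, against 18.7% of all genes (7.98% higher and 10.7% lower). Rgs2 did not pass (0.09 ± 0.23 with the block). By the brightest probe the arrays of 5 genes did not overlap (Rgs1, Rgs13, Rgs16, Rgs10 and Rgs19), against 15.4% of all genes. The members' median difference was 0.09, against -0.05 for all genes, since higher and lower members offset each other.

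**Figure D3:**
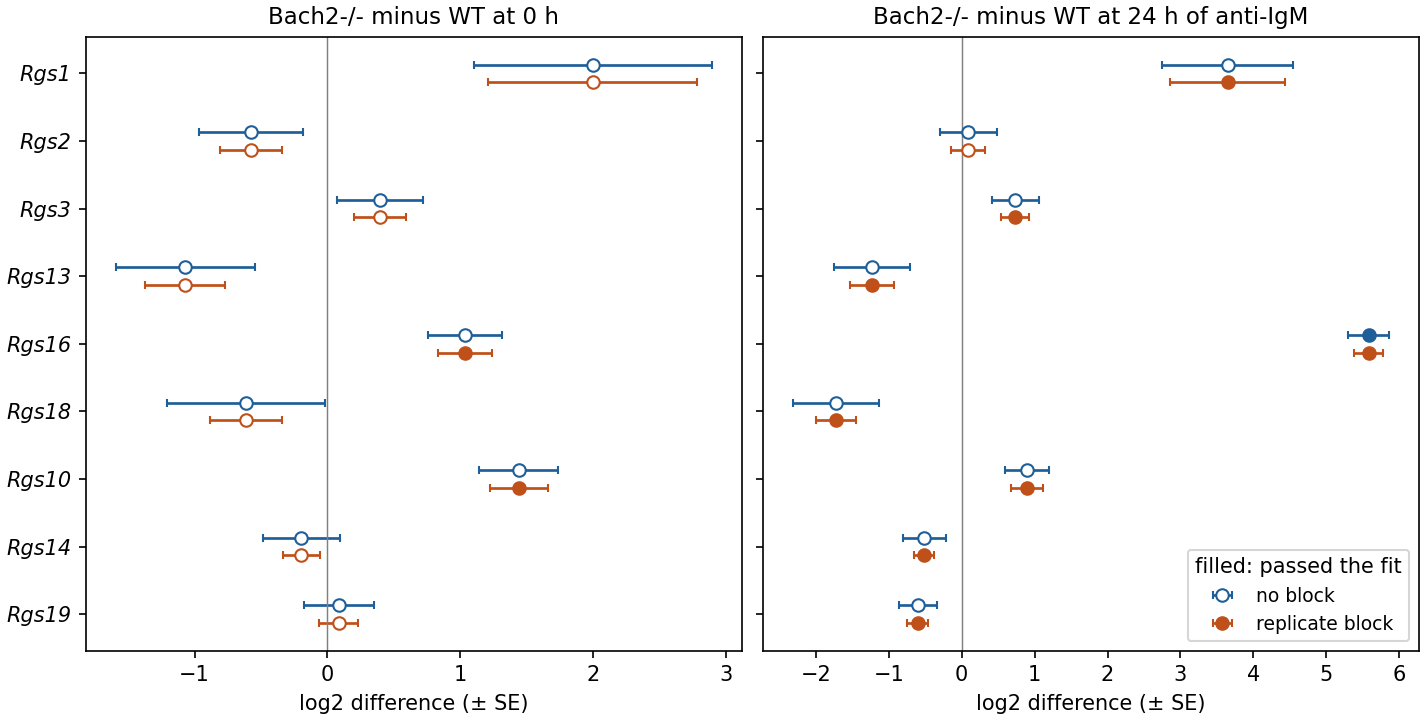
Log2 difference, Bach2-/- minus WT, ± SE at 0 h (left) and 24 h (right) for the 9 genes, from 3 arrays per group, without a block (blue) and with the replicate number as a block (orange); filled points passed the fit. Rgs16 alone passes without the block at 24 h, and 8 of the 9 pass with it.

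Over 24 h with anti-IgM 6 of the 9 genes changed in WT cells, against 20.5% of all genes (11.5% higher and 9.06% lower). Rgs1, Rgs3, Rgs16 and Rgs10 rose, and Rgs18 and Rgs14 fell. In Bach2-/- cells 8 changed, against 13.3% of all genes (5.51% higher and 7.74% lower). These were the 6 genes above in the same directions, with Rgs2 higher and Rgs19 lower. With the replicate block 7 changed in WT cells (47% of all genes, 27.6% higher and 19.3% lower), Rgs2 being added, and 8 in Bach2-/- cells (33.5%, 16.7% higher and 16.8% lower). Arrays at 0 h and 24 h did not overlap for 7 members in WT cells (38.3% of all genes) and 8 in Bach2-/- cells (25.1%). The members' median change was 0.81 in WT and 1.48 in Bach2-/- cells, against 0.04 and 0.07 for all genes. The 2 responses have no samples in common, but each shares a group with both genotype comparisons.

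The difference between the responses passed for 1 member, Rgs16, with and without the replicate block (0.33% of all genes without it, 0.264% higher and 0.0659% lower, and 4.29% with it, 1.73% higher and 2.56% lower). For the other 8 genes it ran from -1.11 ± 0.84 for Rgs18 to 1.65 ± 1.27 for Rgs1 and did not pass. Its SE was 0.37 to 1.27 for these genes without the replicate block and 0.19 to 1.11 with it, and none of the 8 passed in either fit.

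**Figure D4:**
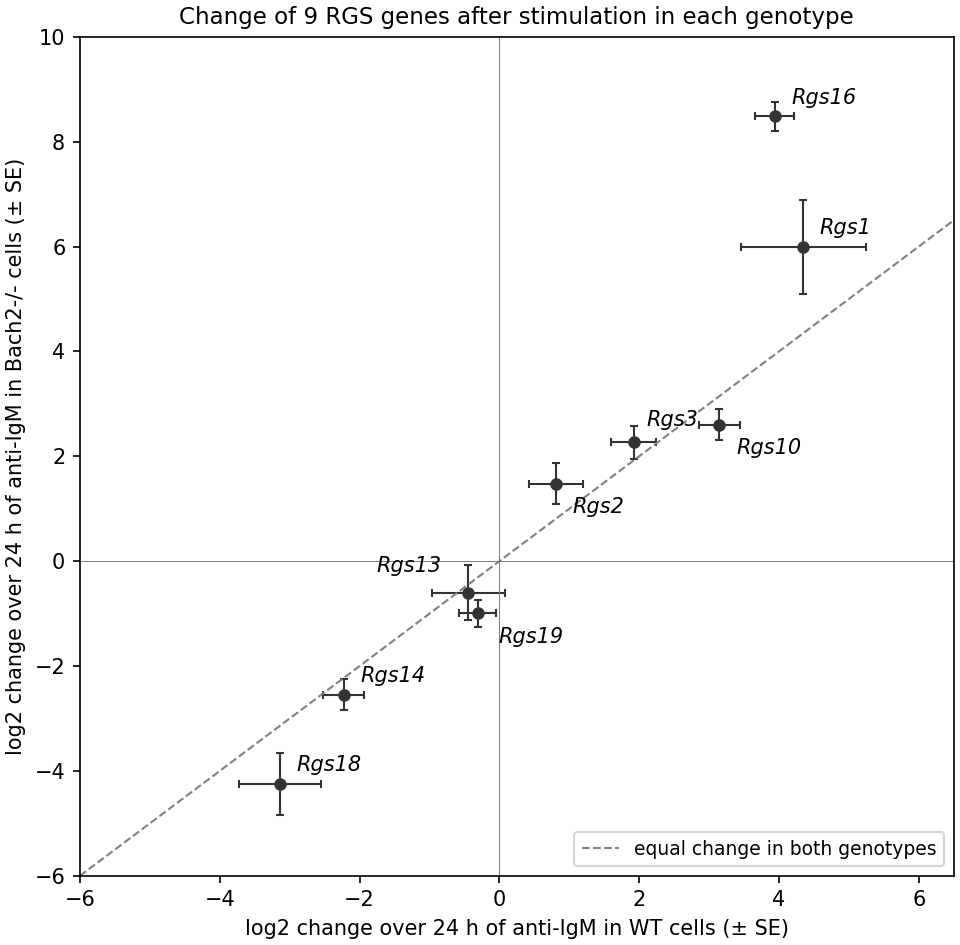
Log2 change from 0 h to 24 h with anti-IgM in WT cells (x axis) and in Bach2-/- cells (y axis), each ± SE from 3 against 3 arrays, for the 9 genes; the dashed line marks equal change. Rgs16 lies 4.55 above the line, and the other genes lie nearer to it.

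Across the 12 arrays the members' levels share the arrays, their scaling and the 2 times, so the correlations only describe them. Rgs18 and Rgs14 had a Pearson r of 0.97, Rgs3 and Rgs10 of 0.96, and Rgs1 and Rgs16 of 0.92. Rgs16 and Rgs18 had r = -0.91. Rgs13 reached at most 0.75, with Rgs19. Among the neighbours on chromosome 1, Rgs1 rose by 6.00 ± 0.90 and Rgs2 by 1.48 ± 0.39 in Bach2-/- cells, with r = 0.71 between their levels. Rgs13, which lies between them, had a change of -0.60 ± 0.52, and Rgs18 one of -4.25 ± 0.59.

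The 5 genes with a RefSeq symbol whose pattern over the 12 arrays was most like that of Rgs16 were Ier3 (r = 0.99), Ifng (0.99), Srxn1 (0.98), Jam2 (0.98) and Usp2 (0.98). Ifng, which encodes interferon gamma, had log2 means of -2.98 ± 0.66 and 1.16 ± 0.29 in WT cells at 0 h and 24 h (SD, n = 3). Bach2-/- cells had -2.52 ± 0.40 and 5.50 ± 0.25. Srxn1, which encodes the antioxidant enzyme sulfiredoxin, was above background on no 0 h array, and had -3.05 ± 0.54 in WT and 1.44 ± 0.57 in Bach2-/- cells at 24 h. Ier3 and Jam2 were likewise above background on no 0 h array, and Usp2 on 3 of 6.

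Among the other RGS family genes, 10 of 12 had a probe named through RefSeq, and 6 (Rgs6, Rgs7, Rgs9, Rgs11, Rgs12 and Rgs20) passed the filter on dim signals. None of the 6 passed in any of the 5 comparisons by limma, and with the replicate block 1 rose in WT and 1 fell in Bach2-/- cells. Rgs8, the neighbour of Rgs16, was not tested. One of its 2 probes was above background on 2 of the 3 Bach2-/- 24 h arrays, at -3.72, -1.38 and -4.19, and on 0 of the other 9 arrays, which read -6.64 to -5.53. Its other probe was above background on 5 of 12 arrays.

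The other genes of the pathway were taken from lists chosen with earlier results of these arrays known. Without a block, 20.5% of all genes changed in WT and 13.3% in Bach2-/- cells. Between genotypes 0.629% passed at 0 h and 3% at 24 h, and 0.33% passed in the response difference. The counts below stand against these shares. Of 27 tested receptor genes of lymphocytes, 15 changed in WT cells (4 rose and 11 fell) and 14 in Bach2-/- cells (4 rose and 10 fell). The list's median change was -1.10 in WT and -0.47 in Bach2-/- cells. S1pr1, which draws lymphocytes out of lymphoid tissue toward sphingosine-1-phosphate, fell by 3.21 ± 0.30 in WT cells (limma adjusted p = 4.3e-05). S1pr4, another receptor for this lipid, fell by 4.11 ± 0.43 in Bach2-/- cells (adjusted p = 6.89e-05). Gpr34, a lysophosphatidylserine receptor, was not well above background at 24 h in either genotype, and was at least 3.73-fold lower than at 0 h in WT (adjusted p = 4.21e-05) and at least 8.14-fold lower in Bach2-/- cells (adjusted p = 3.4e-06). Such bounds set the mean of the brighter group against the lowest signal well above background on each array of the dim group, or the probe's own signal where higher. They hold for the processing of the fit alone, not for every alternative. The Gpr34 call in WT cells was lost with normexp background correction, with a change of -0.56 (adjusted p = 0.27). In Bach2-/- cells the change of Gpr34 ran from -5.41 to -1.18 on the log2 scale over the alternatives. The prostaglandin E2 receptor gene Ptger2 rose in Bach2-/- cells by at least 7.12-fold (adjusted p = 0.00339). Over the alternatives that rise ran from 1.10 to 4.85 on the log2 scale. Ptger4 rose by 1.60 ± 0.45 in WT cells (adjusted p = 0.0258). Its change in Bach2-/- cells was 1.66 ± 0.45, with no alternatives given here. The call of Ptger4 in WT cells was lost without WT 0 h array 2 (adjusted p = 0.103) or 3 (0.0806) or WT 24 h array 1 (0.0974), and with normexp background correction (0.059).

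Between genotypes at 0 h 2 of the 27 receptor genes passed, both higher in Bach2-/- cells. S1pr3, a sphingosine-1-phosphate receptor typical of marginal zone B cells, was higher by 2.61 ± 0.25 (adjusted p = 0.00041), and the adenosine receptor gene Adora2a by 2.34 ± 0.24 (adjusted p = 0.000786). S1pr3 is itself 1 of the marginal zone B cell markers, of which 4 of 7 tested were higher in Bach2-/- cells at 0 h, and their part in its value was not tested. At 24 h 5 were higher and 2 lower. Ccr9, the receptor for the gut chemokine CCL25, was higher by 3.88 ± 0.43 (adjusted p = 0.000451), with log2 means of -3.04 ± 0.50 in WT and 0.84 ± 0.23 in Bach2-/- cells (SD, n = 3). For Ptger2 the bound was at least 6.20-fold higher, with an adjusted p of 0.00799 (0.0718 on slide 1 alone). Ccr7 and Ccr6, chemokine receptors that guide B cells, were lower by -1.64 ± 0.32 (adjusted p = 0.0188) and -1.20 ± 0.25 (adjusted p = 0.026). The call of Ccr7 was lost without 1 of 4 of the 6 arrays compared and that of Ccr6 without 1 of 5, with adjusted p up to 0.116 and 0.16 over all alternatives. The responses differed for Adora2a alone, by -2.39 ± 0.34 (adjusted p = 0.0122, 0.0559 without WT 0 h array 3, 0.0527 without Bach2-/- 0 h array 3 and 0.0807 on slide 1 alone). It changed by 0.78 ± 0.24 in WT cells and by -1.61 ± 0.24 in Bach2-/- cells. With the replicate block 5 of the 27 passed at 0 h, 15 at 24 h and 8 in the response difference, against 3.73%, 18.7% and 4.29% of all genes.

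**Figure D5:**
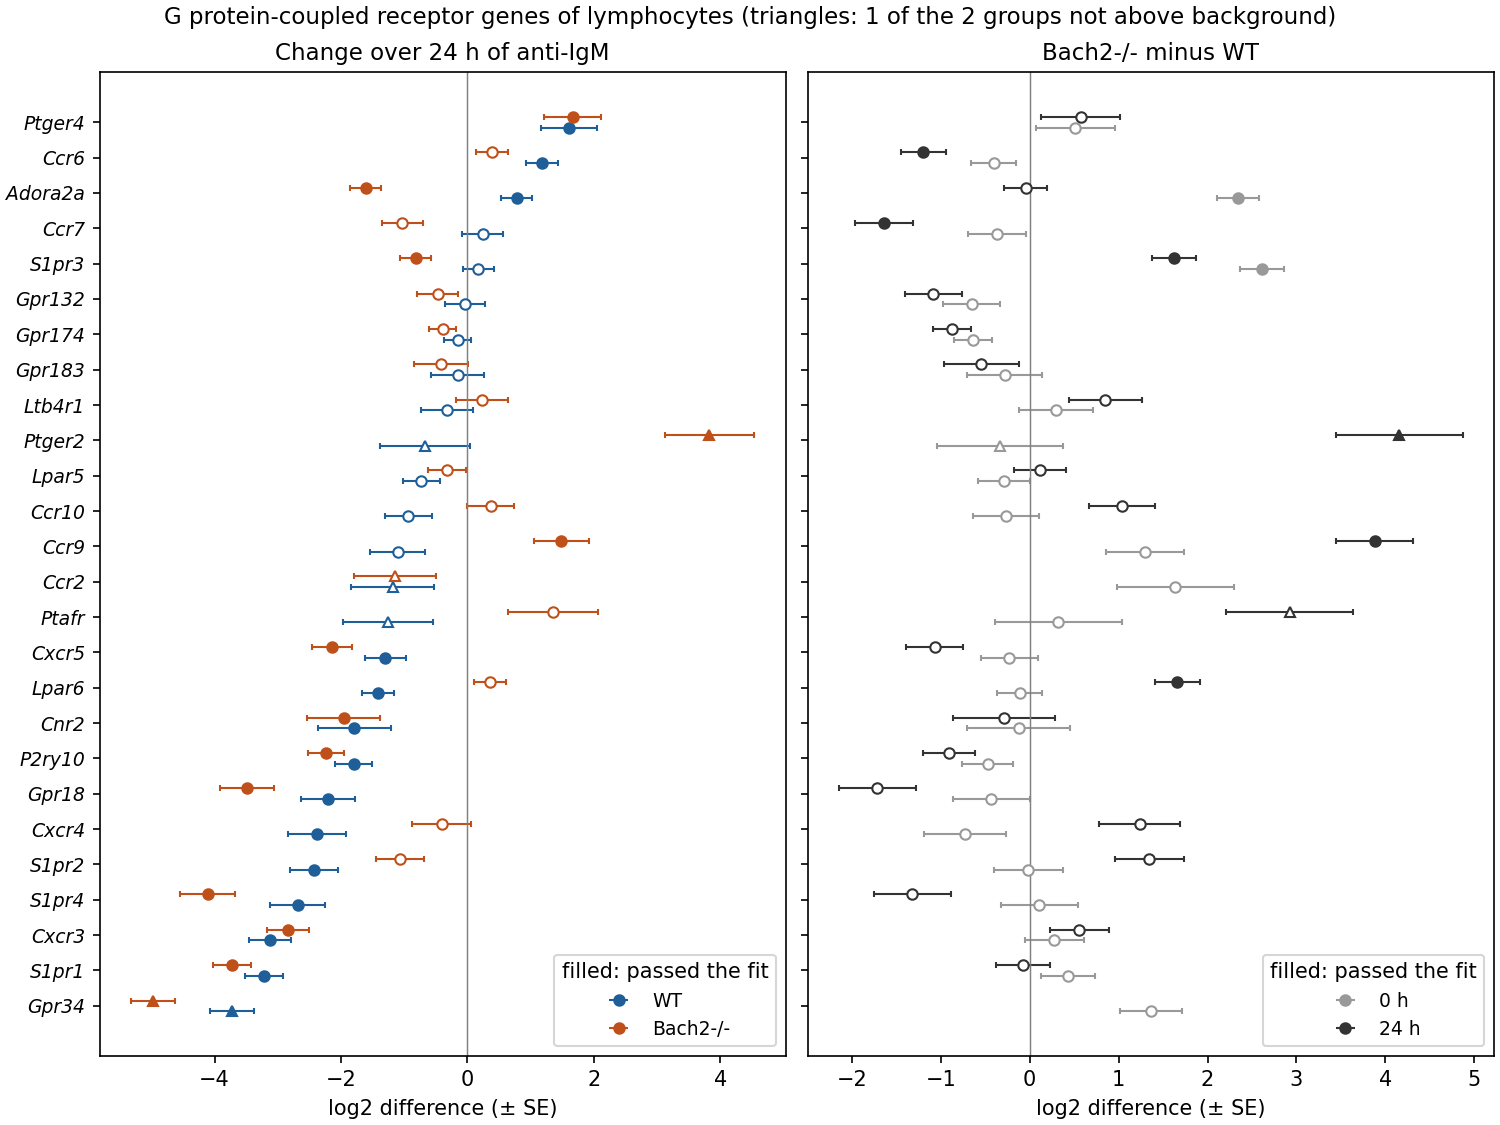
Log2 difference ± SE (3 arrays per group) for 26 of the 27 receptor genes, as the change over 24 h in each genotype (left) and as Bach2-/- minus WT at each time (right); filled symbols passed the fit. Triangles mark a comparison in which 1 group was not above background on any array for the plotted probe, and comparisons with both groups so are left out. S1pr1, S1pr4 and Gpr34 fall in both genotypes, and Ccr9 is higher in Bach2-/- cells at 24 h.

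Of 10 tested genes for alpha subunits, on which RGS proteins act, 0 differed between genotypes at either time by limma and 1 changed in WT cells, Gnaq, which rose by 0.96 ± 0.25 (adjusted p = 0.0189). That call was lost without WT 0 h array 1 (adjusted p = 0.0654) or WT 24 h array 2 (0.0513) or 3 (0.0595). With the replicate block 3 of the 10 changed in WT and 4 in Bach2-/- cells, against 47% and 33.5% of all genes. Of 13 beta and gamma subunit genes, Gng12 alone passed between genotypes, higher in Bach2-/- cells by 1.73 ± 0.26 at 0 h (adjusted p = 0.0111) and by 1.51 ± 0.26 at 24 h (adjusted p = 0.00869). The call at 0 h was lost without WT 0 h array 1 (adjusted p = 0.0509) or 3 (0.0688) or Bach2-/- 0 h array 1 (0.0607), and that at 24 h without WT 24 h array 3 (0.051). Both were lost with normexp background correction (0.103 and 0.0618), the first also with the mean of the probes (0.0949) and on slide 1 alone (0.0612), and the second with only the 24 h groups fitted (0.104). It also rose by 1.49 ± 0.26 in WT cells (adjusted p = 0.00232) and by 1.28 ± 0.26 in Bach2-/- cells (adjusted p = 0.00647, and 0.0575 with only the compared groups fitted). Gngt2 fell by 1.43 ± 0.38 in Bach2-/- cells (adjusted p = 0.0289), a call lost without 1 of 4 of the 6 arrays compared (adjusted p up to 0.106). With the replicate block 7 of the 13 changed in WT cells and 3 in Bach2-/- cells, against the same shares of all genes.

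Of 10 tested effector genes 6 changed in WT cells (1 rose and 5 fell) and 5 in Bach2-/- cells (1 rose and 4 fell). Pik3cg, the catalytic subunit of the phosphoinositide 3-kinase that beta-gamma subunits activate, fell by 2.70 ± 0.25 in WT cells (adjusted p = 4.13e-05). Its regulatory partner Pik3r5 fell by 2.05 ± 0.43 in WT (adjusted p = 0.00664) and by 2.44 ± 0.43 in Bach2-/- cells (adjusted p = 0.00258), while the alternative partner Pik3r6 rose by 1.39 ± 0.26 (adjusted p = 0.00302) and 1.57 ± 0.26 (adjusted p = 0.00142). Pik3r6 was also the 1 effector gene higher in Bach2-/- cells at 24 h (1.36 ± 0.26, adjusted p = 0.0138, and 0.0673 without WT 24 h array 2, 0.0583 without Bach2-/- 24 h array 3 and 0.117 with only the 24 h groups fitted). Adcy3, an adenylyl cyclase, fell by 2.03 ± 0.38 in Bach2-/- cells (adjusted p = 0.00366). At 24 h it was well above background on 1 of the 3 Bach2-/- arrays, and with normexp background correction its change was -0.29 (adjusted p = 0.678).

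Of 7 tested arrestin, GPSM and RIC8 genes, 3 fell in each genotype and 0 rose by limma. Gpsm3, which binds Gi alpha subunits, fell 3.99-fold in WT (adjusted p = 0.000482) and by 1.46 ± 0.27 in Bach2-/- cells (adjusted p = 0.00348). The arrestin gene Arrb1 fell by 0.89 ± 0.26 in WT (adjusted p = 0.0298) and by 1.55 ± 0.26 in Bach2-/- cells (adjusted p = 0.00161), and the call in WT cells was lost without 1 of 4 of the 6 arrays (adjusted p up to 0.105). Arrb2 fell by 1.29 ± 0.38 in Bach2-/- cells (adjusted p = 0.0472, up to 0.241 over the alternatives). Gpsm2, not well above background in WT cells at 24 h, was at least 2.69-fold lower there than at 0 h (adjusted p = 0.00479, against a change of -0.35 and 0.359 with normexp background correction) and at least 2.38-fold higher in Bach2-/- than in WT cells at 24 h (adjusted p = 0.0298). At 24 h it was detected on 2 of the 3 Bach2-/- arrays, and with normexp background correction the genotype difference was 0.44 (adjusted p = 0.623). Of 13 other genes with an RGS or RGS-like domain, 1 rose and 3 fell in WT cells, and 1 rose and 4 fell in Bach2-/- cells. They include the receptor kinases Grk2 (-1.54 ± 0.37, adjusted p = 0.0157) and Grk6 (-1.76 ± 0.39, adjusted p = 0.0106), lower after stimulation in Bach2-/- cells, and Grk5, which rose by 1.42 ± 0.33 there (adjusted p = 0.0134) and by 1.21 ± 0.33 in WT cells (adjusted p = 0.023). Arhgef1, the RhoA exchange factor downstream of G12 and G13 alpha subunits, fell by 0.90 ± 0.20 in WT cells (adjusted p = 0.00987). Its change in Bach2-/- cells was -1.31 ± 0.20, with no alternatives given here. Grk3 (-1.02 ± 0.28, adjusted p = 0.0231) and Grk2 (-1.14 ± 0.37, adjusted p = 0.0479) fell in WT cells, and Arhgef12 was higher in Bach2-/- cells at 24 h (1.10 ± 0.26, adjusted p = 0.0437). At 24 h Grk3 was detected on only 1 of 3 WT arrays, and with normexp background correction its change was -0.14. Of the calls in this group of 13, that of Arhgef1 in WT cells held under every alternative. That of Grk6 held without each array in turn and was lost with the mean of the probes (a change of -1.17) and without both arrays that stood apart (adjusted p up to 0.0821). Each other call named was lost without at least 1 array, with a highest adjusted p over the alternatives from 0.0687 for Grk2 in Bach2-/- cells to 0.903 for Grk3.

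Markers of other cell types moved with some of these groups. Summed signals are given in multiples of the 75th percentile, so the brightest genes of a list weigh most in its sum. Over 7 germinal centre B cell markers the sum was 30.5 to 42.3 and 4.73 to 8.63 in WT cells at 0 h and 24 h, and 25.4 to 38.6 and 2.82 to 3.90 in Bach2-/- cells. This sum followed Bcl6, with log2 means of 5.11 and 2.02 in WT cells and 4.81 and 1.25 in Bach2-/- cells. Of the 7 markers 5 fell in each genotype, whereas Rgs13 passed in neither. Over 7 T cell markers the sum was 35.3 to 48.5 and 98.5 to 163 in WT cells, and 34.8 to 42.6 and 91.6 to 115 in Bach2-/- cells. It followed Lck, with a log2 mean of 4.17 and 6.60 in WT cells, while Cd3e had 2.88 and 2.57. Over 8 neutrophil markers the sum was 12.5 to 34.4 and 1.78 to 18.7 in WT cells, and 29.1 to 59.0 and 12.9 to 56.2 in Bach2-/- cells. None of the 8 passed between genotypes by limma. Their median difference was nevertheless 2.55 at 0 h and 2.94 at 24 h, against 0.03 and -0.05 for all genes. Over 3 erythroid markers the sum was 8.65 to 17.8 and 2.89 to 4.03 in WT cells, and 34.0 to 103 and 11.9 to 35.3 in Bach2-/- cells, where all 3 were higher at 24 h. Over 7 plasma cell markers it was 115 to 175 and 106.6 to 192 in WT cells, and 370 to 632 and 207 to 358 in Bach2-/- cells, with 2 of the 7 higher at 0 h and 3 at 24 h. At 0 h this sum followed Ly6c1, with a log2 mean of 6.03 in WT and 8.41 in Bach2-/- cells, while Irf4 had 3.98 and 3.82. At that time Prdm1 had -1.45 in WT and 1.94 in Bach2-/- cells, Jchain 2.82 and 4.60, and Sdc1 0.40 and -0.48. Over 7 marginal zone B cell markers the sum was 70.2 to 81.8 and 104 to 151 in WT cells, and 91.7 to 124 and 89.9 to 107.3 in Bach2-/- cells. Of the 7, 4 were higher in Bach2-/- cells at 0 h, with a list median of 1.34, and 3 were higher and 2 lower at 24 h. Over 5 macrophage and monocyte markers it was 4.07 to 14.9 and 9.09 to 12.2 in WT cells, and 10.0 to 12.8 and 8.63 to 19.3 in Bach2-/- cells, with 1 higher at 0 h and 2 at 24 h. Over 5 NK cell markers it was 8.60 to 11.4 and 6.26 to 8.43 in WT cells, and 13.4 to 17.7 and 8.90 to 11.99 in Bach2-/- cells. Of these 5, 4 fell in WT and 3 in Bach2-/- cells, and 1 was higher in Bach2-/- cells at 24 h. Their part in the values of Rgs16, Rgs1, Rgs10 and Rgs13 was not tested.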

How the data were processed

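Per the labels' protocols, total RNA of splenic follicular B cells was labelled with Cy3 and hybridised to 12 one-colour arrays. The authors deposited scanner intensity values made with Agilent Feature Extraction 10.7.3.1, per the file headers, whose processed signal is background-subtracted and detrended. The authors also deposited a table of log2 values whose scale and centring are not stated. Its columns had medians from -0.27 to 0.50 and correlated at 0.999828 or more with the scanner values, and it served as an alternative. Per the file headers, other deposited columns hold flags.

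Spots of a probe were averaged after outlier flags were dropped, 112 to 511 spots an array. The processed signal was divided by the array's 75th percentile over noncontrol probes, floored at 0.01 and put on the log2 scale. A probe was kept if some group had it well above background on each of its 3 arrays, and the brightest kept probe stood for a gene. Of all probes 26413 had a RefSeq symbol. limma 3.58.1 in R 4.3.3 fitted 4 group means to 12 arrays (lmFit, eBayes, 2-sided), with Benjamini-Hochberg adjustment over 22751 genes and a threshold of 0.05. The scripts were tested on simulated data.

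The members and all lists were chosen with earlier results of these data known. All 9 members are named, with the pathway genes that passed, or, where more than 4 passed in a list, the 2 with the largest rise and the 2 with the largest fall, and the 5 genes most like Rgs16. Replicate numbers in the labels are shared between groups. Same-numbered arrays deviated together from their group means (18 pairs, r from 0.467 to 0.889). For 12 pairs of other numbers on the same slide r was 0.247 to 0.642, and for 24 pairs across slides -0.814 to -0.417. The pairing thus comes from the data. Every same-numbered pair also shared a slide, and the ranges within a slide overlap. Deviations from a group mean cancel within the group, which lowers r across slides. These values therefore do not separate a shared number from a shared slide. Alternatives covered normalization, background correction (normexp, offset 50), filters, probes, both blocks, slide 1 alone, the groups fitted, left-out arrays and the deposited table. One receptor gene is counted in its list and not reported here.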

Additional observations from a re-analysis of the deposited data

Results flagged for a closer look

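The response of Rgs16 to 24 h with anti-IgM differed between genotypes by a test of the difference itself, the interaction term of the limma fit. The difference was 4.55 ± 0.40 on the log2 scale, with a rise of 3.94 in WT and 8.48 in Bach2-/- cells. It was 4.59 on slide 1 and 4.45 on slide 2. Rgs16 was among the genes chosen with results of these arrays known, so this value is a description.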

How the results depend on the processing

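The number of members called between genotypes at 0 h was 0, and became 1 with quantile normalization, 2 with the replicate block, 2 with the slide as a block and 1 with the percentile taken over spots, an alternative chosen after seeing the data. At 24 h it was 1, and became 2 with quantile normalization, 2 with normexp background correction, 8 with the replicate block, 8 with the slide as a block, 2 on slide 1 alone and 2 with only the compared groups fitted. With the replicate block 3.73% of all genes passed at 0 h and 18.7% at 24 h. For each other alternative that share is not given here, so its count has no background beside it. Over all alternatives the members called ran from 4 to 7 for the WT response and from 6 to 8 for the Bach2-/- response, and stayed at 1 for the response difference. With 1 array left out they were 0 at 0 h, 1 at 24 h, 6 in WT cells, 6 to 7 in Bach2-/- cells and 1 for the response difference. The count over all genes ran from 61 to 849 at 0 h, from 294 to 4246 at 24 h, from 2891 to 10686 in WT cells, from 1950 to 7614 in Bach2-/- cells and from 29 to 976 for the response difference. Apart from members dropped by a filter, the cause of these moves was not tested. Keeping only probes above background on all 12 arrays left 7 members, without Rgs1 and Rgs18. The lowest count in WT cells, 4, was reached with that filter. Each of the 6 calls in WT cells held under every alternative that tested its gene. Of the members' values under the alternatives, 848 stayed on their side of the threshold, 27 newly passed and 15 no longer passed. None reversed a call, but some values that did not pass changed sign. The genotype difference of Rgs2 at 24 h ran from -0.26 to 0.37, and the WT change of Rgs13 from -1.08 to 0.03.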
